A study of Sus scrofa with 6 samples.

Results

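Transcripts of 40 genes of the extracellular matrix were described in the large preovulatory follicles of sows of the Chinese Erhualian and the Large White breed. These genes encode collagens, laminins, a nidogen, elastic fibre and crosslinking proteins, small leucine-rich proteoglycans, fibronectin and matricellular proteins. They were chosen by gene symbol and by signal level, not by any difference between the breeds. The probe table of the array gave 1 symbol of this kind to 78 of its 24123 probe sets, a probe set being the group of short probes that reads 1 transcript. The filter of the study's methods, a signal over 50 on 3 or more of 6 arrays, was passed by 71 of these 78 probe sets, and the 71 cover all 40 genes. The whole array held 19196 probe sets that passed the same filter once the controls were set aside, so the matrix made up 71 of 19196.

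The arrays were Affymetrix porcine expression arrays, and each carried the RNA of 1 sow, with 3 Chinese Erhualian and 3 Large White sows in all. Erhualian pigs are a strain of the prolific Chinese Taihu group, and Large White is a European breed. All 6 sows were multiparous and received 1000 IU of PMSG, which acts like follicle-stimulating hormone, and 500 IU of hCG, which acts like luteinizing hormone, 80 h later. Ovaries were collected 30 to 38 h past the hCG dose, and RNA came from healthy follicles wider than 5 mm. No sow was left without hormones. Each breed was kept on a farm of its own, so breed and farm cannot be told apart. Values are the authors' normalized signals on a linear scale, and each difference is Chinese Erhualian minus Large White on the log2 scale with its standard error (SE).

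A follicle is bounded by a basement membrane, a sheet of type IV collagen and laminin joined by nidogen, which separates the granulosa cells inside from the theca with its vessels outside. The theca and the surrounding stroma hold a scaffold of fibrillar collagens, fibrillin microfibrils and proteoglycans. Matricellular proteins such as thrombospondins and tenascin bind this scaffold and the cells in it, and the whole wall is remodelled when a follicle ruptures.

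One array stood apart before any matrix gene was considered. Log2 signals of Chinese Erhualian sow 1 correlated with those of the other sows at 0.834 to 0.887 over all tested probe sets, while each of the other sows reached 0.955 to 0.967 with the sow most like it. The inhibin subunit INHA, a granulosa marker, had signals of 446, 9602 and 8246 in the Chinese Erhualian sows and 6510, 9989 and 10684 in the Large White sows. Summed over 6 theca markers of 7 listed, the signal was 347, 42543 and 6551 in Chinese Erhualian sows 1 to 3. It was 36435, 12871 and 10078 in Large White sows 1 to 3. In Chinese Erhualian sow 2 and Large White sow 1 its largest parts came from STAR, CYP11A1 and HSD3B1, genes of steroid synthesis. INSL3, also on that list, had 48.5, 3047 and 858 in Chinese Erhualian sows and 1121, 1275 and 1725 in Large White sows. By INSL3, Large White sow 1 was thus the lowest of its breed. Markers of surface epithelium and oviduct (10 of 13 listed) summed to 46114, 2026 and 2169 in the Chinese Erhualian sows and to 1926, 2142 and 8737 in the Large White sows. Leukocyte markers, 10 of 12 listed, summed to 5416 to 7254 in the Chinese Erhualian sows and to 4066 to 21663 in the Large White sows, with the highest sum in Large White sow 2. Granulosa markers (9 of 10 listed) summed to 2444, 24904 and 19483 in Chinese Erhualian sows and 22723, 19176 and 20106 in Large White sows. Chinese Erhualian sow 1 was lowest in 4 of these 9 markers and highest in 2. One of the latter was INHBA, with 899, 294 and 233 in Chinese Erhualian sows and 387, 299 and 339 in Large White sows. The sums of smooth muscle, endothelial, stromal fibroblast and red blood cell markers differed by less than 2-fold between any pair of sows, but single markers did not follow them. The stromal marker DPT had a signal of 3389 in Chinese Erhualian sow 1 and 149 to 242 in the other sows. The stromal factor TCF21 had 206 in that sow against 1004 to 2361. That sow was highest in 2 of the 8 stromal markers and lowest in 3. Of 9 smooth muscle and pericyte markers it was highest in 4, among them CNN1 at 3979 and DES at 853. It was lowest in 3, which were ACTA2, RGS5 and PDGFRB. No tested marker lay under a signal of 1, and no marker of these lists is a matrix gene of this set. In such whole-follicle RNA, fewer cells of a type and less RNA per cell cannot be told apart.

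Most matrix genes were read well above the filter. Of the 71 probe sets, 65 were above 50 on all 6 arrays and the other 6 on 3 to 5 arrays. None was at or under 50 on every array of a breed. The members just inside the filter, above 50 on exactly 3 arrays, were COL10A1 and dim probe sets of COL5A1, COL17A1 and FN1. That of COL17A1 read 38.8, 50.1 and 52.4 in Chinese Erhualian sows and 53.0, 45.6 and 41.1 in Large White sows. The COL5A1 one read 44.8, 53.6 and 55.1 in Chinese Erhualian sows and 51.8, 44.6 and 39.3 in Large White sows, and the FN1 one 36.3, 54.6 and 40.6 in Chinese Erhualian sows and 51.2, 64.6 and 41.7 in Large White sows. Just outside lay a dim COL11A1 probe set with 58.3, 48.6 and 38.5 in Chinese Erhualian sows and 57.1, 38.4 and 35.6 in Large White sows. The other 6 excluded probe sets belong to COL5A3, SPARCL1, DCN, FN1, POSTN and COL1A2, and all 7 genes have a brighter member probe set.

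No matrix gene separated the breeds once the number of probe sets tested was taken into account. None of the 71 matrix probe sets had an adjusted p below 0.05 in limma (the smallest was 0.993), against 4 of 19196 tested probe sets (0.0208%). At the unadjusted threshold of 0.05 that the methods used, 2 of 71 (2.82%) were called, both lower in Chinese Erhualian sows, against 3.86% of all tested probe sets, of which 2.3% were lower and 1.56% higher. Those calls were COL6A3 and the dimmer of the SPARC probe sets. By the methods' t-test 3 of 71 (4.23%) were called, against 4.41% of all tested, and they were COL5A2 and LOXL4, both higher, and SPARC, lower. The 2 breeds were fully separated, without overlap of their signals, in 4 of 71 probe sets (5.63%), against 9.1% of all tested. The lower ones were again COL6A3 and SPARC, for which the share over all probe sets was 5.12%, and the higher ones were dim probe sets of COL5A2 and LOXL4, for which it was 3.98%. Counted over both directions, these shares of the matrix were below those of the whole array.

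The middle of the matrix set was near 0. The median difference over the 71 probe sets was -0.04, against 0.0019 over all tested probe sets, with a range of -0.75 to 0.50 and a median SE of 0.27. Differences were above 0 in 31 probe sets and below 0 in 40. By role group the median was -0.0025 in 15 probe sets of fibrillar collagens, 0.04 in 10 of other collagens, -0.44 in 2 of basement membrane collagens and -0.05 in 7 of laminins. It was -0.12 in the single probe set of NID2, 0.03 in 15 of elastic fibre and crosslinking genes, 0.06 in 3 of small leucine-rich proteoglycans and -0.22 in 18 of fibronectin and matricellular genes. In that last group 14 probe sets lay below 0 and 4 above. These medians moved when a sow was left out. Without Chinese Erhualian sow 1 they were 0.11 in basement membrane collagens, 0.21 in laminins, -0.32 in small leucine-rich proteoglycans and -0.09 in fibronectin and matricellular genes, and without Chinese Erhualian sow 2 they were -1.07 in basement membrane collagens and -0.35 in laminins. With 1 probe set per gene, the one with the highest mean log2 signal, 16 genes were above 0 and 24 below, with a median of -0.06.

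Matrix signals varied from sow to sow in ways that the breeds did not divide. Chinese Erhualian sow 1 had the lowest signal of the 6 sows in 34 of 71 matrix probe sets (47.9%), against 23.1% of all tested probe sets, and the highest in 7 (9.86%), against 23.5%. It lay more than 2-fold below a probe set's own median in 11 matrix probe sets (15.5%), against 4.72% of all tested. The highest signal was that of Chinese Erhualian sow 2 in 20 matrix probe sets (28.2%), against 15.6% of all tested, and the lowest in 11. Large White sow 2 was lowest in 3 (4.23%, against 13.1% of all tested) and highest in 14. Relative to each probe set's own median over the sows, the matrix median was -0.25, 0.07 and 0.05 in Chinese Erhualian sows 1 to 3, against -0.08, 0.04 and 0.01 in Large White sows 1 to 3. Within-breed spread was larger among Chinese Erhualian sows in 49 of 71 probe sets (69.0%), against 59.3% of all tested. No test was made of these shares, since probe sets share arrays and are not replicates.

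**Figure D1:**
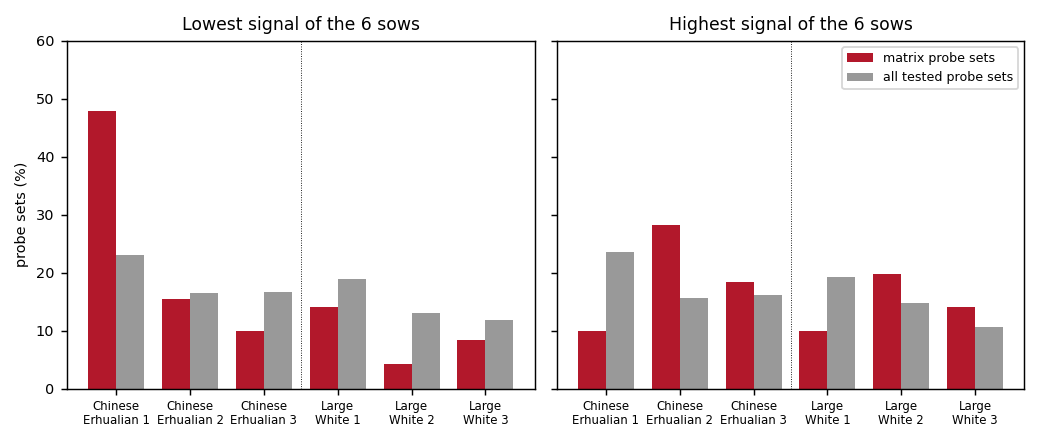
Share of probe sets (y axis, percent) in which each sow (x axis) had the lowest signal (left panel) or the highest signal (right panel) of the 6 sows, for the 71 matrix probe sets (red) and all 19196 tested probe sets (grey). Chinese Erhualian sow 1 was lowest in 47.9% of the matrix probe sets, against 23.1% of all.

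Several orders of the sows recurred, and not all of them were more frequent in the matrix than over all tested probe sets. Chinese Erhualian sow 1 and Large White sow 1 were the 2 lowest in 21 matrix probe sets (29.6%), against 7.49% of all tested, and these 21 belonged to 14 genes that include FBN1, LOX, LOXL1, MFAP2, LAMC1, NID2, COL1A2 and THBS1. Another set had Chinese Erhualian sow 2 and Large White sow 1 lowest, in 9 probe sets (12.7%, against 14.6% of all tested). This order was thus no more frequent in the matrix than over the array. The set held DCN, MGP, FBLN1, SPARCL1, POSTN, LAMB2, COL3A1 and COL6A2 beside FN1. A smaller set of 6 probe sets (8.45%, against 6.12%) was highest in Chinese Erhualian sow 1 and Large White sow 2, and held TNC, LUM, FN1, POSTN, COL6A2 and a dim probe set of COL5A1. Chinese Erhualian sow 3 and Large White sow 3 were the 2 highest in 14 probe sets (19.7%, against 11.2% of all tested). The 2 highest were Chinese Erhualian sow 2 and Large White sow 2 in 8 probe sets (11.3%, against 4.42%). They were Chinese Erhualian sow 2 and Large White sow 3 in 6 (8.45%, against 2.57%). All these sets mix sows of both breeds. Within a breed, Chinese Erhualian sows 1 and 3 were the 2 lowest in 11 probe sets (15.5%, against 11.0% of all tested), which held COL6A3, SPARC, BGN, COL4A2, COL15A1, COL5A3, FN1, LAMC1 and LOXL4.

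**Figure D2:**
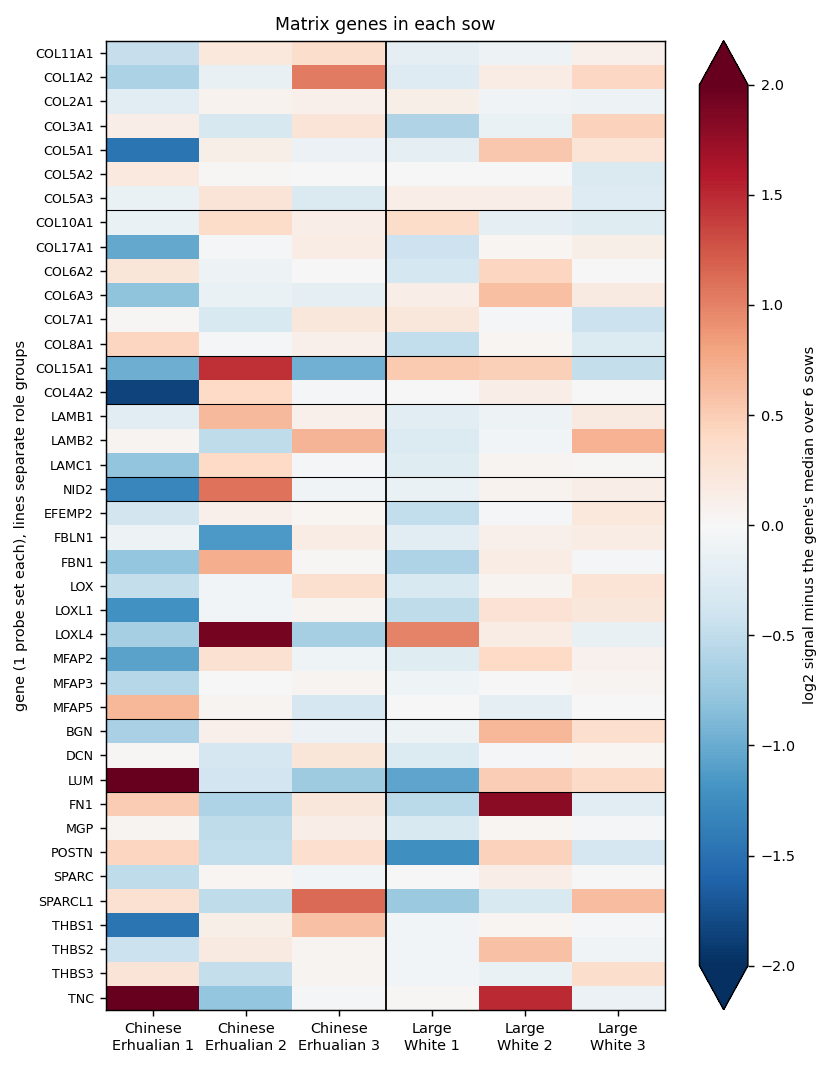
Log2 signal of each matrix gene (1 row per gene, its brightest probe set) minus the gene's median over the 6 sows, with sows in columns, horizontal lines between role groups and a vertical line between the breeds; the colour scale runs from -2 (blue) to 2 (red) and values beyond it take the end colour. The first column, Chinese Erhualian sow 1, is blue in many rows, and LUM and TNC are dark red there.

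The basement membrane genes were widely spread among the Chinese Erhualian sows. In all 10 probe sets of the 6 genes COL4A2, COL15A1, LAMB1, LAMB2, LAMC1 and NID2, the SD of the log2 signal was larger among Chinese Erhualian than among Large White sows, with a median of 0.73 in Chinese Erhualian and 0.19 in Large White sows, against 0.32 and 0.29 for the 61 other matrix probe sets. Chinese Erhualian sow 2 was highest in 9 of the 10 and Chinese Erhualian sow 1 lowest in 8 of the 10. None of the 10 was called at the unadjusted threshold.

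COL4A2, a chain of the type IV collagen network that forms the sheet, had signals of 1385, 6552 and 4853 in the Chinese Erhualian sows, against 4939, 5461 and 5026 in the Large White sows. Its mean was 4263 ± 2633 (SD, n = 3) in Chinese Erhualian sows and 5142 ± 280 in Large White sows, and the difference was -0.54 (SE 0.56). Chinese Erhualian sow 1 lay below every other sow, and without it the difference was 0.13. COL15A1, a collagen of the zone beside basement membranes, had signals of 1171, 6408 and 1185 in the Chinese Erhualian sows and 3316, 3227 and 1663 in the Large White sows, with a difference of -0.33 (SE 0.71, exact permutation p = 0.8). Here Chinese Erhualian sow 2 stood above all other sows and the other Chinese Erhualian sows below them.

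NID2, a nidogen that links laminin to type IV collagen, had signals of 474, 2465 and 1115 in Chinese Erhualian sows and 1068, 1217 and 1282 in Large White sows. The extremes were both Chinese Erhualian sows, and the mean signal was 1351 ± 1016 in Chinese Erhualian and 1189 ± 110 in Large White sows (SD, n = 3 each). The difference of the mean log2 signals had the other sign, -0.12 (SE 0.57), and was 0.48 without Chinese Erhualian sow 1. LAMC1, the laminin gamma 1 chain, followed nearly the same order, with 1577, 3576 and 2682 in Chinese Erhualian sows and 2301, 2828 and 2762 in Large White sows and a difference of -0.08 (SE 0.31). All 4 of its probe sets were highest in Chinese Erhualian sow 2 and lowest in Chinese Erhualian sow 1, with differences of -0.21 to 0.04. LAMB1, the laminin beta 1 chain, read 809, 1470.3 and 1010.1 in Chinese Erhualian sows and 797, 869.5 and 1061 in Large White sows, a difference of 0.24 (SE 0.27), or 0.0020 without Chinese Erhualian sow 2, and its second probe set gave 0.08.

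LAMB2, the beta 2 chain that replaces beta 1 in other laminins, was the exception in this group. Its signals were 892, 608 and 1380.3 in the Chinese Erhualian sows and 714, 835 and 1401 in the Large White sows, so Chinese Erhualian sow 2 was the lowest and the difference was -0.05 (SE 0.39). The theca marker sum had its extremes in the same sows as COL4A2, COL15A1, NID2 and LAMC1. It was 42543 in Chinese Erhualian sow 2, the highest, and 347 in Chinese Erhualian sow 1, the lowest. Large White sow 1 came next to the highest by that sum, at 36435. That sow was the lowest of its breed in COL4A2, NID2 and LAMC1 and the highest of it in COL15A1. Chinese Erhualian sows 2 and 1 were also the extremes of the granulosa marker sum, at 24904 and 2444. They were also those of the summed collagen making genes described below, at 28472.5 and 10165.7. Chinese Erhualian sow 2 was highest in only 2 of those 12 genes. One of these was PCOLCE2, with 8567 in that sow and 699 to 3609 in the other sows. The part of any of these marker or gene sums in the spread of COL4A2, COL15A1, NID2 and LAMC1 was not tested. Chinese Erhualian sow 2 had the highest signal of COL4A2, COL15A1, NID2, LAMC1 and LAMB1.

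**Figure D3:**
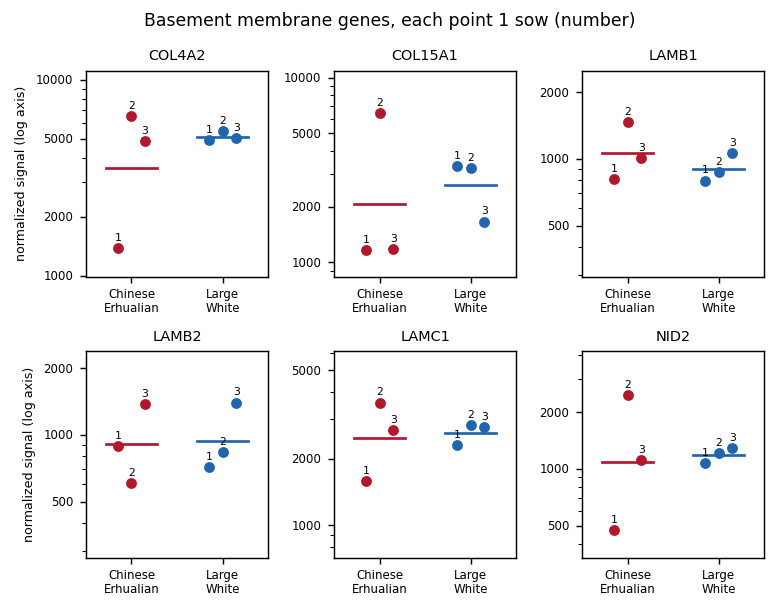
Normalized signal (y axes, log scale) of 6 basement membrane genes in each sow, with points numbered by sow and lines at the mean of the log2 signals in Chinese Erhualian (red, left) and Large White (blue, right) sows. In 4 of the panels, those of COL4A2, COL15A1, LAMC1 and NID2, the Chinese Erhualian points lie on both sides of all Large White points.

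Fibrillar collagens, which form the tension-bearing fibres of the stroma, gave no called probe set among 15 (7 above and 8 below 0). COL1A2, a chain of type I collagen, had signals of 714, 1000.5 and 2268 in the Chinese Erhualian sows, against 925, 1219 and 1472 in the Large White sows. Chinese Erhualian sows gave both the lowest and the highest value, and the difference was -0.01 (SE 0.45). COL3A1, type III collagen of distensible tissues, was dim on this array at 92.1, 67.6 and 100.1 in Chinese Erhualian sows and 55.1, 76.6 and 115.9 in Large White sows, with a difference of 0.12 (SE 0.31).

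Type V collagen, a minor component around which thicker fibrils are nucleated, was read by COL5A1, COL5A2 and COL5A3. COL5A3, named after its values were seen, had 2 probe sets, with differences of -0.06 and -0.26. The brightest COL5A1 probe set had signals of 697, 2069 and 1771 in Chinese Erhualian sows and 1688, 2793 and 2311 in Large White sows, with a difference of -0.70 (SE 0.45, exact permutation p = 0.3). The breeds overlapped, and without Chinese Erhualian sow 1 the difference was -0.21. The 6 COL5A1 probe sets ran from -0.70 to 0.39, with 3 on each side of 0. The second brightest gave -0.49 (SE 0.40), or -0.07 without Chinese Erhualian sow 1. The other probe sets, among them the 3 above 0, were dimmer, with signals of 39.3 to 174. The 2 bright probe sets thus had 1 sign, which the dim ones did not all share. COL5A2 had signals of 193, 170.1 and 167 in the Chinese Erhualian sows and 166, 169 and 137 in the Large White sows (0.17, SE 0.16). Its dimmer probe set, named after its values were seen, read 108.6, 100.3 and 108.7 in Chinese Erhualian sows and 91.6, 89.8 and 93.0 in Large White sows without overlap (exact permutation p = 0.1, the smallest that 3 sows against 3 allow), a difference of 0.21. COL11A1, a partner of the minor fibrillar collagens, read 39.1, 61.8 and 68.3 in Chinese Erhualian sows and 47.5, 50.2 and 57.4 in Large White sows, close to the filter, with a difference of 0.09 (SE 0.24).

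Among the other collagens, COL6A3 was the 1 gene of the 40 called by its brightest probe set. COL6A3, a chain of the beaded filament collagen VI that surrounds cells, had signals of 2756, 4358 and 4214 in the Chinese Erhualian sows, against 5296, 7307 and 5449 in the Large White sows. Every Chinese Erhualian sow lay below every Large White sow. The means were 3776 ± 886 in Chinese Erhualian and 6017 ± 1120 in Large White sows (SD, n = 3 each), a ratio of 0.628, and the difference was -0.69 (SE 0.23, limma p = 0.0240, adjusted p = 0.993, exact permutation p = 0.1). The difference was -0.47 without Chinese Erhualian sow 1 and -0.54 without Large White sow 2, and in both cases it no longer passed the unadjusted threshold in limma. COL6A2, another chain of the same collagen and named after its values were seen, had no such separation, with 1515, 1183 and 1265 in Chinese Erhualian sows and 996, 1712 and 1284 in Large White sows (0.02, SE 0.25).

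COL8A1, a short-chain network collagen of vessel walls, had signals of 238, 173 and 189.8 in the Chinese Erhualian sows and 126, 182 and 147 in the Large White sows. The highest 2 sows were Chinese Erhualian, Large White sow 2 lay among that breed, and the difference was 0.40 (SE 0.21, exact permutation p = 0.2). Its 4 probe sets ran from -0.05 to 0.40. COL17A1, a transmembrane collagen of the hemidesmosomes of epithelia, had 119, 234 and 266 in Chinese Erhualian sows and 179.6, 246 and 260.2 in Large White sows (-0.21, SE 0.35). It was lowest in Chinese Erhualian sow 1, the sow with the highest sum of epithelial markers. COL10A1, best known from growth plate cartilage, read 48.3, 68.2 and 58.0 in Chinese Erhualian sows and 68.6, 46.9 and 44.5 in Large White sows (0.14, SE 0.23), values around the filter.

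Genes of the elastic fibre and of crosslinking gave no called probe set among 15. FBN1, the fibrillin of microfibrils, had signals of 1192, 3369.5 and 2068 in the Chinese Erhualian sows, against 1325, 2251 and 2007 in the Large White sows. Sow 1 was lowest in both breeds, Chinese Erhualian sow 2 was highest, and the difference of 0.16 (SE 0.41) was 0.54 without Chinese Erhualian sow 1. A second FBN1 probe set had the same lowest and highest sows and a difference of 0.19. MFAP2, a small glycoprotein bound to those microfibrils, had 245, 632 and 483 in Chinese Erhualian sows and 435, 679 and 545 in Large White sows (-0.37, SE 0.39, and 0.02 without Chinese Erhualian sow 1). MFAP3, another microfibril-associated glycoprotein, had 133, 199 and 205 in Chinese Erhualian sows and 187, 196 and 205 in Large White sows (-0.16, SE 0.21).

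The lysyl oxidases, which crosslink collagen and elastin, were read by LOX, LOXL1 and LOXL4. LOX had signals of 419.8, 559.6 and 722 in the Chinese Erhualian sows and 469, 603 and 699 in the Large White sows (-0.07, SE 0.28). Both breeds covered the same range, with sow 1 lowest in each. LOXL1 showed the same lowest sows, with 374, 834 and 891 in Chinese Erhualian sows and 607, 1058 and 1006 in Large White sows. Its difference was -0.40 (SE 0.41) with all sows and -0.0037 without Chinese Erhualian sow 1. The brightest LOXL4 probe set had 218, 1303 and 217 in Chinese Erhualian sows and 686, 382 and 312 in Large White sows. It was highest in Chinese Erhualian sow 2 and then Large White sow 1, the sows with the largest theca and the largest granulosa marker sums. The theca marker INSL3 was not among the highest in Large White sow 1, and the part of such cells was not tested. LOXL4 was named after its values were seen. The difference of its brightest probe set was -0.14 (SE 0.75), and its dimmer probe sets gave 0.03 and 0.25. FBLN1, a fibulin of elastic fibres and basement membranes, had 5324, 2586 and 6381 in Chinese Erhualian sows and 4972, 6171 and 6386 in Large White sows, a difference of -0.39 (SE 0.34). Chinese Erhualian sow 2 alone was low, and without it the difference was 0.0052.

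The small leucine-rich proteoglycans, which bind collagen fibrils and set their width and spacing, were read by 3 genes with 1 probe set each. BGN (biglycan) had signals of 615, 1029 and 885 in the Chinese Erhualian sows, against 902, 1523 and 1219 in the Large White sows. The means were 843 ± 210.2 in Chinese Erhualian and 1215 ± 311 in Large White sows (SD, n = 3 each), a ratio of 0.694, with Chinese Erhualian sow 2 above Large White sow 1 and a difference of -0.53 (SE 0.29, exact permutation p = 0.2). DCN (decorin) was bright and even, at 10400.5, 8074 and 12015 in Chinese Erhualian sows and 8459.9, 9969 and 10483 in Large White sows (0.06, SE 0.17). LUM (lumican) varied by 11.1-fold between its highest and lowest sow, with 2359, 342 and 272 in Chinese Erhualian sows and 214, 623 and 579.8 in Large White sows. Its difference of 0.50 (SE 0.89) rested on Chinese Erhualian sow 1 and was -0.48 without that sow.

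Among matricellular proteins, SPARC, a collagen-binding glycoprotein, gave different sizes in its 2 probe sets. The brighter probe set had signals of 7747, 11292 and 10571 in the Chinese Erhualian sows, against 10894, 12099 and 11107 in the Large White sows. The breeds overlapped and the difference was -0.22 (SE 0.16), or -0.06 without Chinese Erhualian sow 1. In the dimmer one, named after its values were seen, signals were 226, 293 and 282 in Chinese Erhualian sows and 408, 375 and 495 in Large White sows, and every Chinese Erhualian sow lay below every Large White sow. Means of that probe set were 267 ± 35.8 in Chinese Erhualian and 426 ± 62.4 in Large White sows (SD, n = 3 each), and the difference was -0.67 (SE 0.20, limma p = 0.0143, adjusted p = 0.993, exact permutation p = 0.1). It was -0.76 to -0.56 when any 1 sow was left out, with limma p from 0.0214 to 0.0476. SPARCL1, a relative of SPARC, had 3969.5, 2258 and 7067 in Chinese Erhualian sows and 1926, 2599 and 4936 in Large White sows (0.45, SE 0.51), with sow 3 highest in each breed. Leaving out 1 sow gave 0.040 to 0.86, the lowest without Chinese Erhualian sow 3.

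FN1 (fibronectin), which joins collagens to cell surface integrins, had its highest signal in a single Large White sow, far above the rest. Its signals were 3825, 1759.5 and 3154 in the Chinese Erhualian sows and 1868, 9491 and 2316 in the Large White sows. The difference was -0.32 (SE 0.65) with all sows and 0.41 without Large White sow 2. That sow also had the highest leukocyte marker sum, 21663, and the part of those cells in the FN1 signal was not tested. TNC (tenascin C), a glycoprotein of remodelling tissue, had 615, 52.7 and 88.4 in Chinese Erhualian sows and 91.0, 254 and 82.8 in Large White sows, an 11.7-fold range. It was high in Chinese Erhualian sow 1 and Large White sow 2 only, with a difference of 0.19 (SE 0.96) that was -0.86 without Chinese Erhualian sow 1. Both TNC and LUM were highest in Chinese Erhualian sow 1, whose epithelial marker sum was 46114 and DPT signal 3389. Of the 8 stromal markers, which include DPT, that sow was highest in 2 and lowest in 3, among the latter TCF21 at 206. The part of epithelial or stromal tissue in the TNC and LUM signals was not tested.

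THBS1, a thrombospondin that binds latent TGF-beta and limits vessel growth, had signals of 529, 1577 and 2173 in the Chinese Erhualian sows, against 1389, 1494 and 1408 in the Large White sows. The Large White sows were close together and the Chinese Erhualian sows lay on both sides of them, with means of 1426 ± 832 in Chinese Erhualian and 1430.4 ± 55.9 in Large White sows (SD, n = 3 each). The difference was -0.23 (SE 0.51), its 5 probe sets ran from -0.75 to 0.14, and without Chinese Erhualian sow 1 the brightest gave 0.37. THBS2, its close relative, had 511, 783 and 716 in Chinese Erhualian sows and 665, 1036 and 661 in Large White sows (-0.22, SE 0.28). POSTN (periostin), a collagen-binding protein of fibroblasts, had 901, 478 and 844 in Chinese Erhualian sows and 286, 919 and 533 in Large White sows (0.46, SE 0.48), or 0.029 without Large White sow 1 and 0.87 without Large White sow 2. MGP, the matrix Gla protein that restrains calcification, had 10106, 6857 and 10600.0 in Chinese Erhualian sows and 7859, 9949.6 and 9489.7 in Large White sows (-0.0049, SE 0.20). POSTN and MGP shared their lowest 2 sows, Chinese Erhualian sow 2 and Large White sow 1.

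**Figure D4:**
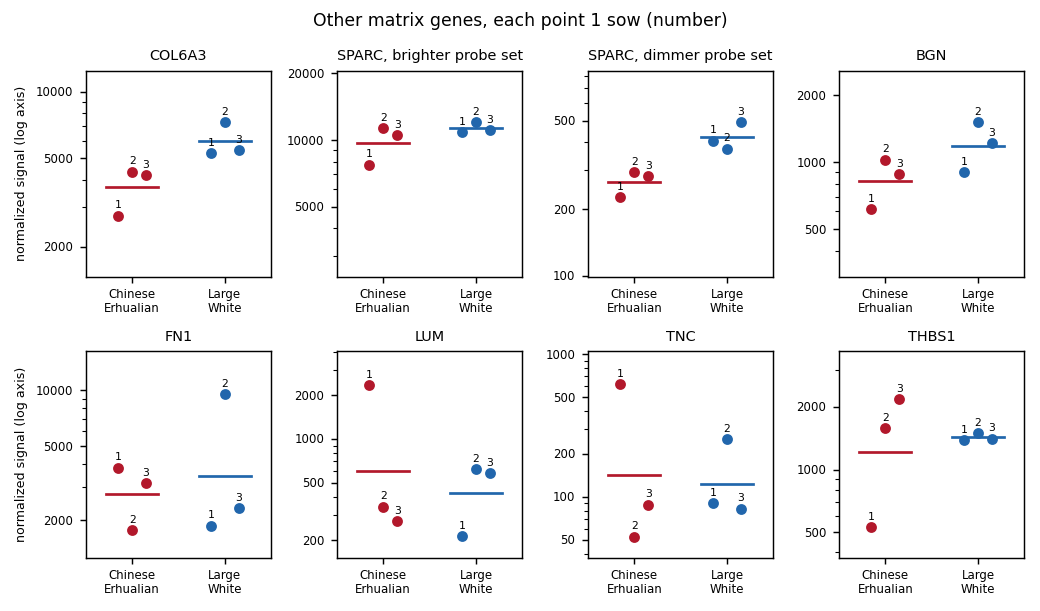
Normalized signal (y axes, log scale) of 7 matrix genes, SPARC with both probe sets, in each sow, with points numbered by sow and lines at the mean of the log2 signals in Chinese Erhualian (red, left) and Large White (blue, right) sows. COL6A3 and the dimmer SPARC probe set are the panels without overlap between the breeds, and single sows stand out for FN1, LUM and TNC.

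The remaining genes, COL2A1, COL7A1, EFEMP2, MFAP5 and THBS3, gave no called probe set. EFEMP2, a fibulin needed for elastic fibre assembly, was above 0 in its 3 probe sets (0.04 to 0.18), and THBS3 below 0 in its 3 (-0.20 to -0.11). More than 1 member probe set was available for 16 genes. In 10 of them all differences had 1 sign and in 6 both signs occurred, and the probe sets named the same highest sow in 6 genes and the same lowest sow in 7. Probe sets of 1 gene therefore often disagreed on small differences between the breeds.

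Leaving out Chinese Erhualian sow 1 turned the sign of 23 of the 71 matrix differences. The median then was 0.06, with 27 probe sets below 0 and 44 above, and 1 probe set, the dimmer one of SPARC, had an unadjusted p at or below 0.05 in limma (1.41%, against 3.66% of all tested). Leaving out Chinese Erhualian sow 2 in its place gave 5 such probe sets, all lower in Chinese Erhualian sows (7.04%, against 6.38% of all tested probe sets). They were of COL15A1, COL6A3, LAMC1, LOXL4 and SPARC, with LAMC1 and SPARC called by dimmer probe sets and not by their brightest. Without Large White sow 2 the dimmer SPARC probe set again was the 1 called, against 1.94% of all tested, and without Large White sow 1 there were 3 (4.23%, against 3.52%), COL6A3 and SPARC lower and a dim COL5A1 probe set higher. Leaving out sow 3 of either breed gave COL6A3 and SPARC, against 4.28% of all tested without the Chinese Erhualian and 4.78% without the Large White sow.

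**Figure D5:**
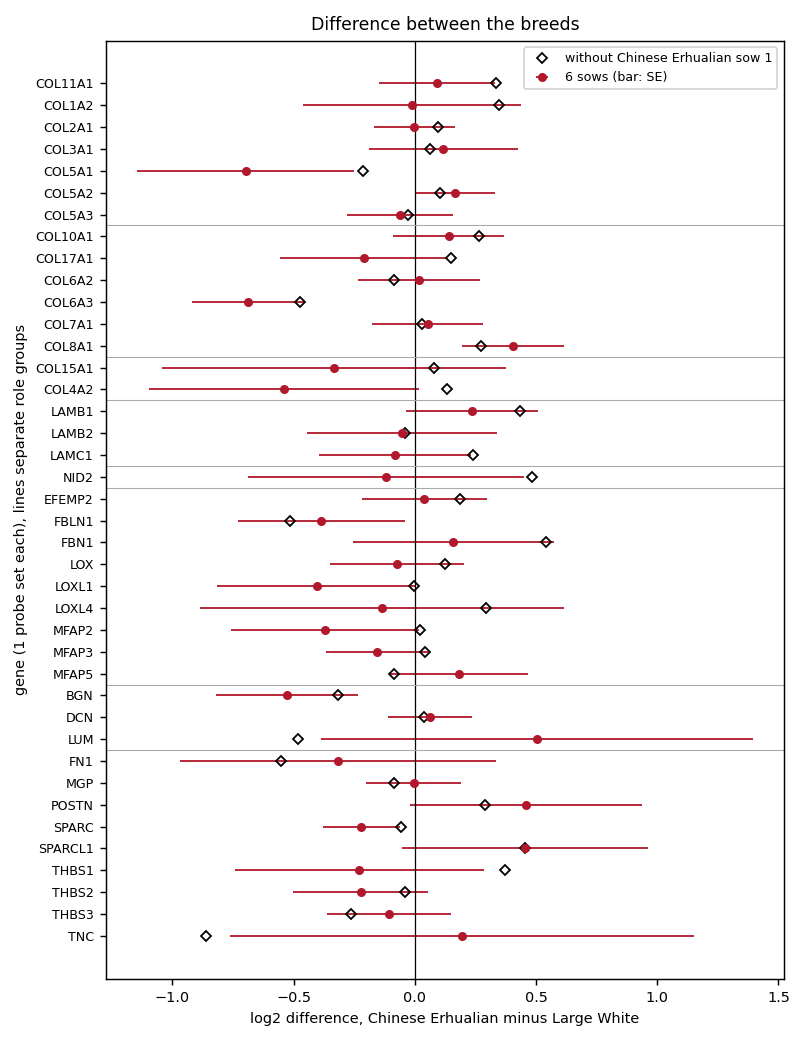
Difference between the breeds (x axis, log2, Chinese Erhualian minus Large White) for each of the 40 matrix genes, with the SE from all 6 sows (red points and bars) and the difference without Chinese Erhualian sow 1 (open diamonds). COL6A3 lies at -0.69 with all sows and at -0.47 without that sow.

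Genes that make, fold, modify or process collagen were read from a list of 32, of which 12 were tested. One, PLOD3, was lower in Chinese Erhualian sows at an unadjusted p at or below 0.05 and none was higher, against 2.3% and 1.56% of all tested probe sets. Differences were below 0 in 11 of the 12, with a median of -0.71, against 0.0019 over all tested probe sets. The lowest signal was that of Chinese Erhualian sow 1 in 9 of the 12, and without it the median was -0.26 with 9 below 0 and 3 above. PLOD3, a lysyl hydroxylase that also adds sugars to collagen, had signals of 822, 1339 and 1370.1 in Chinese Erhualian sows and 1885, 2273 and 1744 in Large White sows, a difference of -0.77 (SE 0.26, limma adjusted p = 0.993). SERPINH1, the collagen chaperone of the endoplasmic reticulum, had 2286, 6734 and 5756 in Chinese Erhualian sows and 8565, 7321 and 7050.3 in Large White sows (-0.77, SE 0.40). The breeds did not overlap in either gene, nor in COLGALT1, a collagen galactosyltransferase named after its values were seen (-0.53, SE 0.28), which is 3 of 12 (25.0%), against 5.12% of all tested probe sets that were lower without overlap.

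Receptors for the matrix and the TGF-beta genes gave no call. Of 22 listed receptors 10 were tested, with 3 differences above 0, 7 below and a median of -0.23, which was -0.09 without Chinese Erhualian sow 1 and 0.08 without Large White sow 2. SDC4, a syndecan that works beside integrins at sites of adhesion, had 314, 770 and 898 in Chinese Erhualian sows and 638, 2303 and 1680.0 in Large White sows (-1.17, SE 0.60), and the breeds overlapped. SDC1, another syndecan, had 252, 1141 and 995 in Chinese Erhualian sows and 1045, 2335 and 1055 in Large White sows (-1.06, SE 0.65). Of 13 genes of TGF-beta, its receptors and its latent binding proteins, 5 were tested, with a median difference of 0.03. TGFB2, a TGF-beta ligand, had 298, 221 and 232 in Chinese Erhualian sows and 210, 181 and 255 in Large White sows (0.22, SE 0.21). TGFBR1, a receptor, had 740, 488 and 814 in Chinese Erhualian sows and 350, 817 and 562 in Large White sows (0.29, SE 0.37).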

How the data were processed

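Signals were deposited as 1 normalized intensity per probe set and array, on a linear scale. The authors made these intensities with MAS5 (2.3.1 in the deposited notes), scaled each array to a common target and applied invariant set normalization in dChip, so a change in total RNA cannot be seen in them. Depth does not apply to arrays, and the number of arrays limits the precision. Gene symbols came from the probe table, which gives 1 symbol to 10099 probe sets, several to 198 and no symbol to 13826. Members were probe sets with 1 symbol of the chosen families and a signal over 50 on 3 or more of 6 arrays. The gene identifiers of all 78 matching probe sets were found in a RefSeq gene table, and 0 symbols differed. No sequence was used here.

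After removal of 188 control probe sets and a floor of 1 for the signals, log2 signals of 19196 probe sets were fitted with breed alone in limma 3.58.1 (R 4.3.3, variance trend, 2-sided), with Benjamini-Hochberg adjustment over all of them. Each mean has the SD of 3 sows. Exact permutation tests are 2-sided and cannot go below 0.1. No set test was run. The fitting step was tested on simulated data. Other steps used Python 3.11.15, pandas 2.3.3, numpy 2.4.6 and matplotlib 3.10.9. The arrays are from separate sows numbered within a breed by the labels. No pair of arrays held the same values.

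The members, role groups, gene lists and markers were chosen with earlier results of these data known. A gene was represented by its brightest probe set. Named with every sow's signal were, in each of 8 role groups, the 4 genes with the smallest limma p and 1 fixed list of well-known matrix genes, and in each companion list the 2 smallest p. Genes of the fixed list with no member probe set, such as COL1A1 and COL4A1, were not analysed here. The alternatives were other normalizations, filters, offsets, array weights, variance priors, a replicate block, the methods' t-test, leaving out each array and 1 probe set per gene. Leaving out arrays for role groups and companion lists and the second SPARC probe set were added after seeing the data.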

Additional observations from a re-analysis of the deposited data

How the results depend on the processing

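The number of tested probe sets with an adjusted p below 0.05 was 4, and it was 11 with array weights, 0 with the replicate block, 0 by the methods' t-test and 2 to 4 when an array was left out. At an unadjusted p of 0.05 the block called 719 probe sets and the t-test 846, against 741 in limma. Deviations from the breed means correlated at -0.172, -0.137 and 0.273 between same-numbered sows and at -0.481 to 0.512 between differently numbered ones. They cannot show whether sows were paired, since the deviations of 3 sows of a breed constrain each other. The labels number the sows within a breed and name no pairs. Among the matrix probe sets the unadjusted calls were 2, 1 with 1 probe set per gene, 3 each with array weights, with the block and by the methods' t-test (2 of the last higher), and 1 to 5 when an array was left out. COL6A3 did not pass the unadjusted threshold by the methods' t-test, and BGN passed it with array weights and with the replicate block. The median difference of the matrix stayed between -0.08 and -0.03 under the alternatives that kept all arrays and lay between -0.09 and 0.06 when an array was left out. The collagen making median ranged from -1.02 to -0.26, the receptor median from -0.40 to 0.076 and the TGF-beta median from -0.050 to 0.24 when an array was left out.

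Of 293 gene values under alternatives with all arrays, 285 kept the sign and 8 did not. With array weights COL1A2 became 0.25, LAMB2 0.16, LOX 0.0087, LUM -0.20, THBS1 0.036 and TNC -0.52, and with quantile normalization COL1A2 became 0.012 and MGP 0.034. Of 198 values with an array left out, 33 changed sign, in 20 genes. Their ranges were -0.068 to 0.33 for COL11A1, -1.15 to 0.078 for COL15A1, -0.44 to 0.15 for COL17A1, -0.49 to 0.35 for COL1A2, -0.14 to 0.40 for COL3A1, -0.99 to 0.13 for COL4A2, -0.067 to 0.22 for DCN, -0.65 to 0.0052 for FBLN1, -0.21 to 0.54 for FBN1, -0.76 to 0.41 for FN1, -0.35 to 0.24 for LAMB2, -0.35 to 0.24 for LAMC1, -0.27 to 0.13 for LOX, -0.48 to 1.08 for LUM, -0.66 to 0.021 for MFAP2, -0.27 to 0.043 for MFAP3, -0.12 to 0.19 for MGP, -0.71 to 0.48 for NID2, -0.65 to 0.37 for THBS1 and -0.86 to 0.91 for TNC. The cause of these changes was not tested. No adjusted p of a named matrix gene fell below 0.05 under any of these alternatives.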
